A study of Mus musculus with 9 samples.

Results

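The 9 genes described here encode the exchangeable parts of the proteasome. They were chosen by name from all 50686 genes counted in each library: the inducible catalytic subunits Psmb8, Psmb9 and Psmb10, their constitutive partners Psmb5, Psmb6 and Psmb7, and the PA28 activators Psme1, Psme2 and Psme3. All 9 passed the filter on low counts and were among the 13852 genes tested.

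The proteasome is a barrel-shaped protease that degrades ubiquitin-tagged proteins, and its inner rings carry the catalytic subunits. Interferon-gamma and other inflammatory signals induce alternative catalytic subunits that replace the constitutive ones during assembly of new barrels, which gives the immunoproteasome. Immunoproteasomes are abundant in lymphoid cells and produce many of the peptides that are displayed on MHC class I molecules. PA28 caps open the barrel without ATP, as the alpha-beta form made of the Psme1 and Psme2 products or as the nuclear gamma form made of the Psme3 product.

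mRNA was sequenced from mouse bone marrow cells transformed with the BCR/ABLp185 oncogene, a fusion kinase of leukaemia that activates the transcription factors STAT5A and STAT5B. Every line carried BCR/ABLp185 on the C57BL/6N background, and the groups were wt, Stat5a-/- and Stat5b-/-. Each genotype was represented by 1 cell line with 3 technical replicates, so that all p-values measure the spread between libraries of a line and the tests compare 3 lines. Differences between lines of the same genotype were not measured. The labels name no treatment for any group.

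Library totals lay between 11948136 and 19016396 counted reads. The description attached to the knockout libraries reads as wt lines, against their titles, sources and genotype labels, which were used here. Stat5a was at 43.1 ± 6.35 normalized CPM (CPM, counts scaled to a common library total with edgeR's TMM factors, SD, n = 3) in wt libraries, 12.4 ± 1.02 in those of Stat5a-/- and 83.7 ± 10.2 in those of Stat5b-/-. Stat5b was at 106 ± 1.96, 142 ± 15.9 and 63.4 ± 7.72 in the same order, so reads from each targeted gene remained in its knockout at a lower level. T-cell genes were read in every library of these bone marrow lines: all 17 T-cell markers had reads throughout, and their summed level was 893 to 1213 CPM in wt, 1564 to 1812 in Stat5a-/- and 2015 to 2852 in Stat5b-/- cells. The summed B-lineage markers were at 4724 to 5019, 6449 to 7153 and 5743 to 6586 CPM in the same order, whereas the recombinase genes Rag1 and Rag2 were between 29.6 and 67.1 CPM in wt and at most 1.09 CPM in the knockout libraries. Myeloid markers summed to at most 11.2 CPM and erythroid markers to at most 14.2 CPM. The part of these marker levels in the results was not tested beyond the fit with T-cell receptor reads given further on. That fit cannot fully separate these reads from the line in Stat5b-/- against wt.

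Promoter windows of 250 bases before to 50 after the transcription start were taken from RefSeq (GRCm38.p6), and 8 of the 9 genes had at least 1. The following stretches hold the letters of elements known from interferon-induced genes, of one known from stress-induced genes, or of the GC box, a general promoter element, and are shown for 2 of the genes that rose, for the start of the gene that rose most, and for constitutive partners. Capitals mark the matches, and stretches that a longer GENCODE transcript annotates as 5′ UTR were limited to the site. The Psmb8 stretch lies at chr17:34198088-34198116 on the plus strand and matches the interferon-gamma activated site TTCNNNGAA at bases -97 to -89 from the RefSeq start. The Psme1 stretch at chr14:55578493-55578522 (plus strand) matches the interferon-stimulated response element core, GAAA repeated after a gap of 2 bases, on its other strand, at bases 10 to 19 after the start. Psmb9 and its antisense neighbour Tap1 have 225 bases between their starts (chr17:34187331-34187555), and the stretch from this interval at chr17:34187368-34187397 (plus strand) holds a GC box, GGGCGG on its other strand. The windows before Psmb5 (chr14:54617996-54618245, minus strand) and Psmb6 (chr11:70525107-70525356, plus strand) match the antioxidant response element core TGACNNNGC, at bases -47 to -39 and -9 to -1. The Psmb6 stretch also holds a GC box, at bases -182 to -177.
Psmb8: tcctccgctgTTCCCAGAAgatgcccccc
Psme1: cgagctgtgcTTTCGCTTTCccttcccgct
Psmb9-Tap1: cagactgaggccCCGCCCcatcatcgcgca
Psmb5: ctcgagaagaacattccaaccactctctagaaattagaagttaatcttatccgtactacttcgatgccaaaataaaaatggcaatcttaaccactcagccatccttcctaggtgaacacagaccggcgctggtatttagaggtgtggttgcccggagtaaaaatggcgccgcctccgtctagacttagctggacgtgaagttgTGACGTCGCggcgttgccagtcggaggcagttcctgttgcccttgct
Psmb6: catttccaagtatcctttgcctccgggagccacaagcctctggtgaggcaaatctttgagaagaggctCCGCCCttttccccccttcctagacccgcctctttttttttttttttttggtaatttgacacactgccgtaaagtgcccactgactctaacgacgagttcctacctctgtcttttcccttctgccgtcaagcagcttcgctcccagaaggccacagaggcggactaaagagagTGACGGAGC

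Both strands were searched, and of all 32851 RefSeq windows 8.3% held TTCNNNGAA, 3.44% the repeated GAAA, 12.4% TGACNNNGC and 35.7% GGGCGG. The interval between Psmb9 and Tap1 held no match to the first 3 of these elements, and the windows of Psmb10 and Psme3 held none of the 4. GC boxes also stood in the windows of Psme1 and Psme2, outside the stretches printed. These matches are runs of letters and no binding was measured.

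The first question was how the inducible subunits stood in cells without STAT5B or STAT5A. Psmb9, which encodes the inducible subunit beta1i, rose most among the 9 genes in both knockout lines. Its gene lies at chr17:34181988-34187764 on the minus strand. Psmb9 was at 39.2, 33.2 and 36.4 normalized CPM in wt, 127.3, 131.9 and 147.4 in Stat5a-/- and 161.3, 164.2 and 149.0 in Stat5b-/- replicates. The wt libraries lay far below both knockout lines, and every Stat5b-/- library lay above every Stat5a-/- library. Against wt, Psmb9 was 4.36-fold higher in Stat5b-/- (95% interval 3.73 to 5.11, log2 fold change 2.13 ± 0.11 SE, adjusted p = 4.37e-09 in edgeR's quasi-likelihood test, adjusted by Benjamini-Hochberg) and 3.74-fold higher in Stat5a-/- (3.20 to 4.38, adjusted p = 1.30e-08). Both comparisons share the wt libraries. In these bulk libraries, a change in the share of cells of a type and a change in RNA per cell cannot be told apart.

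Psmb8, which encodes beta5i, lies near Psmb9 in the MHC class II region at chr17:34197721-34201454 on the plus strand. It was at 78.9, 66.7 and 64.9 normalized CPM in wt, 132.3, 124.5 and 125.9 in Stat5a-/- and 115.5, 121.5 and 122.6 in Stat5b-/- replicates. The wt libraries were again the lowest, but here the Stat5a-/- libraries lay above the Stat5b-/- libraries. Psmb8 was 1.71-fold higher in Stat5b-/- (log2 fold change 0.77 ± 0.10 SE, adjusted p = 3.30e-05) and 1.82-fold higher in Stat5a-/- (0.86 ± 0.10, adjusted p = 1.43e-05) than in wt. In Stat5a-/- it exceeded the median of its chromosome by 0.33, as given further on.

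Psmb10, which encodes beta2i, lies outside the MHC at chr8:105935735-105938444 on the minus strand. It was at 85.4, 72.2 and 77.4 normalized CPM in wt, 90.1, 76.7 and 102.2 in Stat5a-/- and 125.6, 107.9 and 95.9 in Stat5b-/- replicates. The Stat5b-/- libraries lay above all wt libraries, whereas Stat5a-/- overlapped both other lines. Psmb10 rose by 0.49 ± 0.13 SE on the log2 scale in Stat5b-/- against wt (adjusted p = 0.00783), a call that was lost without Stat5b-/- replicate 1 (log2 fold change 0.35, adjusted p = 0.0544). In Stat5a-/- it did not pass (log2 fold change 0.20, 95% interval -0.09 to 0.48, adjusted p = 0.272).

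**Figure D1:**
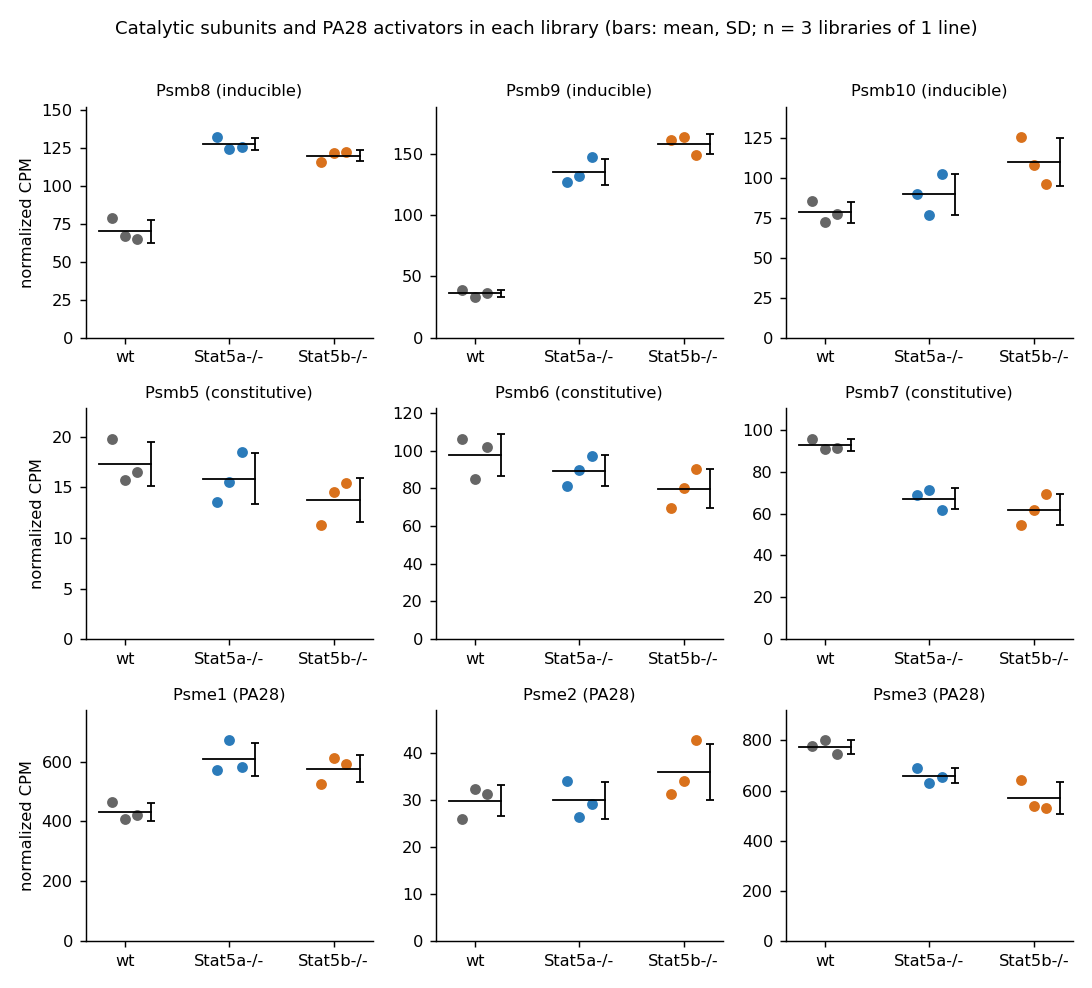
Normalized CPM of the 9 genes (vertical axes, each from 0) in each of the 3 libraries of wt, Stat5a-/- and Stat5b-/- (points), with the mean and SD of each line as bars. The wt libraries of Psmb9 sit between 33.2 and 39.2, below all knockout libraries at 127.3 to 164.2, whereas Psmb7 and Psme3 are highest in wt.

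The constitutive subunits did not rise in either knockout line. Psmb7, which encodes the trypsin-like subunit beta2 (chr2:38588036-38644087, minus strand), was at 95.8, 91.0 and 91.4 normalized CPM in wt, 68.7, 71.0 and 61.5 in Stat5a-/- and 54.4, 61.8 and 69.2 in Stat5b-/- replicates. All wt libraries lay above all knockout libraries, and the knockout lines overlapped. Psmb7 fell by 0.59 ± 0.11 SE on the log2 scale in Stat5b-/- (adjusted p = 6.39e-04) and by 0.47 ± 0.11 in Stat5a-/- (adjusted p = 0.00393).

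Psmb6, which encodes the caspase-like subunit beta1 (chr11:70525367-70527858, plus strand), was at 106.4, 85.1 and 101.8 normalized CPM in wt, 81.1, 89.7 and 97.2 in Stat5a-/- and 69.5, 80.0 and 90.0 in Stat5b-/- replicates, and all lines overlapped. Its log2 fold changes against wt were -0.29 in Stat5b-/- (95% interval -0.56 to -0.02, adjusted p = 0.0701) and -0.13 in Stat5a-/- (adjusted p = 0.448). The former passed under 8 of 21 alternative settings, DESeq2 among them (log2 fold change -0.33, adjusted p = 0.0495), with adjusted p from 0.0277 to 0.958 over all 21. Psmb5, which encodes the chymotrypsin-like subunit beta5 (chr14:54614120-54617995, minus strand), had the fewest reads of the 9, at 19.8, 15.7 and 16.5 normalized CPM in wt, 13.5, 15.5 and 18.5 in Stat5a-/- and 11.3, 14.6 and 15.4 in Stat5b-/- replicates. The Stat5b-/- libraries all lay just below the wt libraries. The log2 fold changes of Psmb5 were -0.33 in Stat5b-/- (95% interval -0.68 to 0.01, adjusted p = 0.108) and -0.13 in Stat5a-/- (adjusted p = 0.564).

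The PA28 genes moved in different directions. Psme1, which encodes PA28 alpha (chr14:55578123-55581529, plus strand), was at 466.8, 408.5 and 421.2 normalized CPM in wt, 571.6, 672.1 and 581.3 in Stat5a-/- and 525.8, 612.5 and 592.5 in Stat5b-/- replicates. All knockout libraries lay above all wt libraries. Psme1 was 1.34-fold higher in Stat5b-/- (adjusted p = 0.00595) and 1.41-fold higher in Stat5a-/- (adjusted p = 0.00249) than in wt.

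Psme2, which encodes the partner PA28 beta (chr14:55587441-55591113, minus strand), was at 26.0, 32.3 and 31.2 normalized CPM in wt, 34.1, 26.4 and 29.1 in Stat5a-/- and 31.3, 33.9 and 42.7 in Stat5b-/- replicates, with all lines overlapping. Its log2 fold changes were 0.27 in Stat5b-/- (95% interval -0.04 to 0.58, adjusted p = 0.149) and 0.00 in Stat5a-/- (-0.31 to 0.32, adjusted p = 0.994). Psme3, which encodes PA28 gamma (chr11:101316213-101323537, plus strand), was at 776.9, 800.9 and 746.3 in wt, 690.9, 631.7 and 655.6 in Stat5a-/- and 643.3, 537.8 and 528.9 in Stat5b-/- replicates. The wt libraries were the highest. Psme3 fell by 0.44 ± 0.10 SE on the log2 scale in Stat5b-/- (adjusted p = 0.00327), and in Stat5a-/- its log2 fold change of -0.23 did not pass (adjusted p = 0.0957).

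In Stat5b-/- against wt, 4 of the 9 genes were higher and 2 lower at an adjusted p under 0.05, beside 46.2% of all tested genes called (24.2% higher and 22.0% lower). In Stat5a-/- against wt, 3 were higher and 1 lower, beside 36.0% of all tested genes (19.8% higher and 16.3% lower). The median log2 fold change of the 9 was 0.27 in Stat5b-/- and 0.00 in Stat5a-/-, where the medians of all tested genes were 0.02 and 0.01. Past a fold of 2, Psmb9 alone was left in each comparison, beside 19.1% and 14.2% of all tested genes. The libraries of 7 of the 9 genes did not overlap between Stat5b-/- and wt and those of 5 between Stat5a-/- and wt, beside 54.2% and 49.2% of all tested genes.

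**Figure D2:**
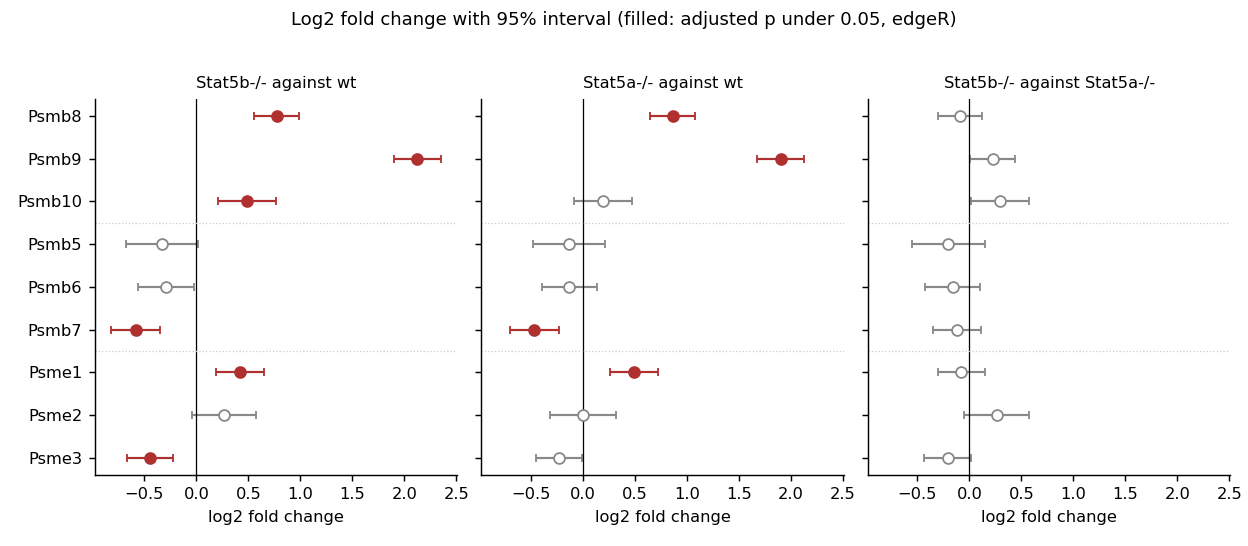
Log2 fold change (horizontal axis) of each of the 9 genes in the 3 comparisons, with 95% intervals. Filled points passed an adjusted p under 0.05. Psmb9 stands at 2.13 and 1.90 against wt, and no gene is filled in the direct comparison of the knockout lines.

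Directly compared, the knockout lines did not differ in any of the 9 genes at an adjusted p under 0.05 with edgeR, where 33.9% of all tested genes were called (16.4% higher and 17.5% lower, 11.4% past a fold of 2). The libraries of 2 of the 9, Psmb8 and Psmb9, did not overlap, beside 44.8% of all tested genes. DESeq2 called 0 as well, and 2 of the 9 had an unadjusted p under 0.05 with edgeR. These were Psmb9 with a log2 difference, Stat5b-/- minus Stat5a-/-, of 0.22 (95% interval 0.01 to 0.44, adjusted p = 0.104) and Psmb10 with 0.29 (0.01 to 0.57, adjusted p = 0.101). For Psmb8 the ratio of Stat5b-/- to Stat5a-/- was 0.94 (95% interval 0.811 to 1.09, adjusted p = 0.513). Psmb9 and Psmb10 passed when an offset for GC content was used (log2 difference 0.35, adjusted p = 0.00107, and 0.50, adjusted p = 1.09e-04), a setting that called 6070 genes in all against 4698. Deviations of libraries from the mean of their line correlated with GC content at r from -0.46 to 0.50, and the main fit made no correction for this. Both genes also passed when library totals alone scaled the counts (0.34 and 0.40), which moved the median of all tested genes from 0.02 to 0.13.

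Psmb8 and Psmb9 lie on a chromosome whose tested genes were on balance higher in Stat5a-/- than in wt. In Stat5a-/- against wt the 677 tested genes of chromosome 17 had a median log2 fold change of 0.53, with 0.43 on chromosome 18 and 0.41 on chromosome 19. In Stat5b-/- the median of chromosome 17 was 0.14. Relative to these medians Psmb8 was higher by 0.33 in Stat5a-/- and 0.64 in Stat5b-/-, and Psmb9 by 1.37 and 1.99 on the log2 scale. With counts scaled within each chromosome, a setting chosen after seeing the data, Psmb8 stood at 0.32 (adjusted p = 0.0233) in Stat5a-/- and 0.67 (adjusted p = 1.08e-04) in Stat5b-/-. The difference between the knockout lines, Stat5b-/- minus Stat5a-/-, was then 0.35 for Psmb8 (adjusted p = 0.0170) and 0.66 for Psmb9 (adjusted p = 1.09e-04), so the direction for Psmb8 turned. The number of copies of the chromosome was not tested.

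**Figure D3:**
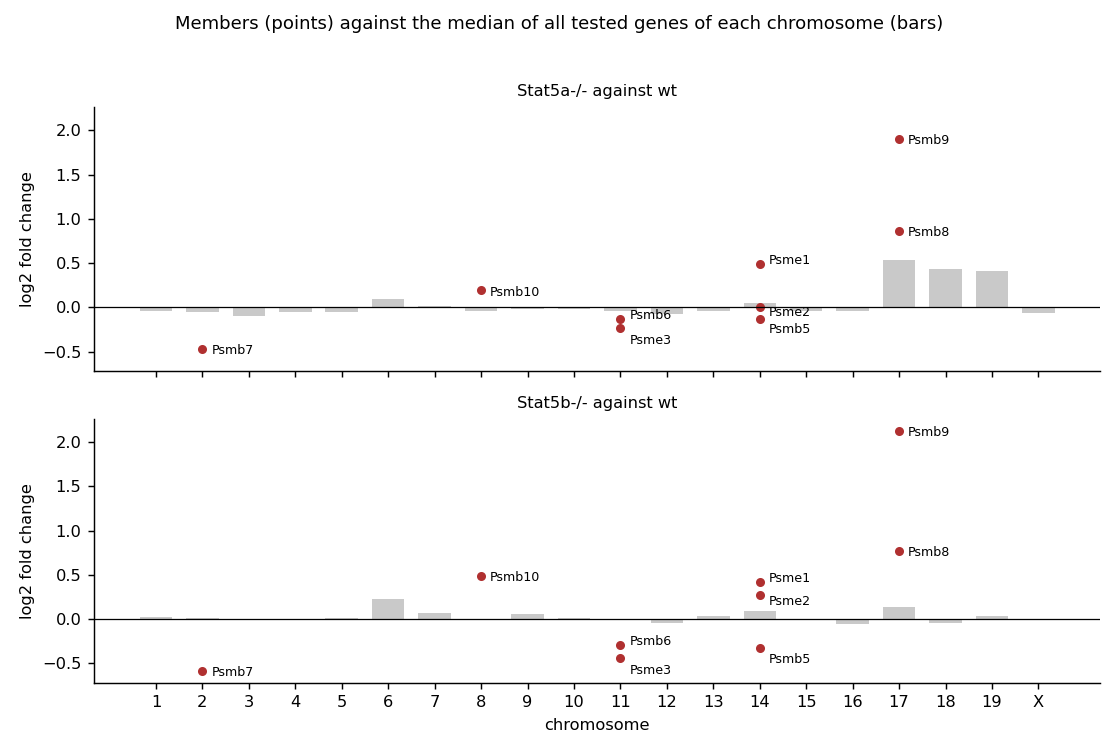
Log2 fold change (vertical axis) of the 9 genes (points) and the median of all tested genes (bars) on each chromosome (horizontal axis), for Stat5a-/- against wt above and Stat5b-/- against wt below. The bar of chromosome 17 reaches 0.53 in Stat5a-/- and 0.14 in Stat5b-/-, and Psmb8 and Psmb9 lie above it in both.

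Of the 17 T-cell markers above, 16 were higher and 0 lower in Stat5b-/- against wt (median log2 fold change 1.14) and 9 were higher and 0 lower in Stat5a-/- against wt (median 0.44), beside 24.2% and 19.8% of all tested genes called higher. In Stat5a-/- the marker Cd28 was at -0.33 and did not pass, while Cd2 was highest there, at 276 ± 16.8 normalized CPM against 55.1 ± 0.892 in wt and 96.3 ± 6.98 in Stat5b-/- (SD, n = 3). The sum was lowest in wt and highest in Stat5b-/-. An order of 3 lines cannot test its relation to the 9 genes. When the reads on T-cell receptor beta V genes entered the fit as a covariate, Psmb9 was higher in Stat5b-/- than in wt by 2.36 on the log2 scale (adjusted p = 1.06e-06), Psmb8 by 0.94 (adjusted p = 0.00118) and Psme1 by 0.65 (adjusted p = 0.0118). In the same fit Psmb10 (0.62, adjusted p = 0.0727) and Psmb7 (-0.54, adjusted p = 0.0526) no longer passed, and the genes called fell from 6397 to 3465 in all.

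Each inducible subunit replaces a given constitutive subunit, so the ratio of the partners was computed within each library from reads per kb of exon, which cancels the scaling of the library. The ratio of Psmb9 to Psmb6 was 0.189, 0.199 and 0.183 in wt, 0.803, 0.753 and 0.776 in Stat5a-/- and 1.19, 1.05 and 0.847 in Stat5b-/- replicates. The lines followed each other without overlap, from wt to Stat5a-/- to Stat5b-/-. An exact permutation test over the 9 libraries and 3 lines (1680 assignments, without direction) gave p = 0.00357, the smallest it can give, and 0.0107 after Benjamini-Hochberg adjustment over the 3 ratios. The log2 ratio was higher than in wt by 2.42 in Stat5b-/- and 2.03 in Stat5a-/-. Between the knockout lines it differed by 0.39, and the exact two-sided permutation test of 3 against 3 libraries gave p = 0.10, the smallest this design allows.

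The ratio of Psmb10 to Psmb7 was 1.79, 1.59 and 1.70 in wt, 2.63, 2.17 and 3.34 in Stat5a-/- and 4.63, 3.50 and 2.78 in Stat5b-/- replicates. Both knockout lines lay above wt and overlapped with each other, and the exact permutation test over the 3 lines gave p = 0.00714 (adjusted 0.0107). The log2 ratio was higher than in wt by 1.07 in Stat5b-/- and 0.66 in Stat5a-/-. In Stat5a-/- only Psmb7 of this pair passed its own test. The ratio of Psmb8 to Psmb5 was 1.27, 1.35 and 1.26 in wt, 3.12, 2.55 and 2.17 in Stat5a-/- and 3.25, 2.66 and 2.54 in Stat5b-/- replicates. It was also above wt in all knockout libraries (exact permutation p = 0.0214, adjusted 0.0214), with log2 differences of 1.12 in Stat5b-/- and 1.00 in Stat5a-/-, and the knockout lines overlapped. With counts scaled within each chromosome, chosen after seeing the data, the difference from wt of Psmb8 to Psmb5 was 0.48 in Stat5a-/- and 1.08 in Stat5b-/-, and that of Psmb9 to Psmb6 was 1.46 and 2.34. The knockout lines then differed by 0.60 and 0.87 on the log2 scale, Stat5b-/- being the higher. The level of a ratio depends on the gene lengths, while the differences between lines do not. With the longest coding transcript as the length, chosen after seeing the data, the geometric mean of Psmb10 to Psmb7 was 0.746 in wt, 1.18 in Stat5a-/- and 1.57 in Stat5b-/-. That of Psmb8 to Psmb5 was 2.24, 4.48 and 4.85, and that of Psmb9 to Psmb6 was 0.219, 0.896 and 1.17, in the same order.

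**Figure D4:**
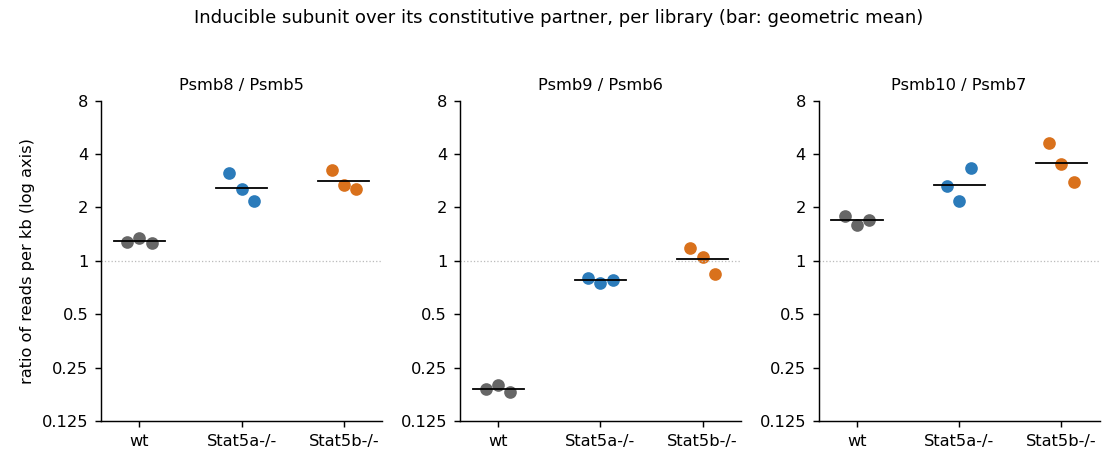
Ratio of reads per kb (vertical axis, log scale) of each inducible subunit to its constitutive partner in the 3 libraries of each line, with the geometric mean as a bar. Psmb9 to Psmb6 has geometric means of 0.190 (wt), 0.777 (Stat5a-/-) and 1.02 (Stat5b-/-), the widest span of the 3 ratios.

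Summed over the 6 catalytic genes, the inducible subunits took 45.1% ± 0.819 (SD, n = 3) of the reads per kb in wt, 61.4% ± 1.95 in Stat5a-/- and 66.4% ± 4.27 in Stat5b-/- replicates. With the longest coding transcript as the length of each gene, a choice made after seeing the data, these shares were 36.9%, 56.9% and 62.0%. The union exon lengths include exons of non-coding transcripts, and by the counting command in the file headers, which sets no option for them, reads that map to several places or to overlapping genes were not counted. Of all 50-base stretches in the transcripts of Psmb5 and Psme2, 54.1% and 54.9% also occurred in other genes, as did 28.1% for Psmb7 and at most 11.3% for each of the other 6 genes. Levels of Psmb5, Psme2 and Psmb7, and ratios built on them, are therefore uncertain in absolute terms. Psmb5 shares 12.5% of its exon bases with Mir686 on the same strand. On the opposite strand, Psmb7 shares 11.8% with Nek6, Psmb8 6.80% with Gm20496, Psmb9 5.79% with Tap1 and Psme1 0.634% with Emc9.

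The remaining subunits of the barrel and of its 19S cap, the ATP-dependent lid and base that recognise ubiquitin, were lower where they passed. Of 29 such genes tested, 10 were lower and 0 higher in Stat5b-/- than in wt with edgeR and with DESeq2 (0 higher also at an unadjusted p under 0.05), and 28 had a negative log2 fold change, with a median of -0.34 beside 0.02 over all tested genes, of which 22.0% were called lower and 24.2% higher. In Stat5a-/-, 1 was lower and 0 were higher (median -0.17), against 4 and 0 with DESeq2 and 7 and 1 at an unadjusted p under 0.05, beside 16.3% of all tested genes lower and 19.8% higher. Psmd3, a 19S lid subunit, fell by 0.67 on the log2 scale in Stat5b-/- (adjusted p = 0.00122), and Psmd7, another lid subunit, fell by 0.54 (adjusted p = 0.0120). Psmc1, an ATPase of the base, fell by 0.58 in Stat5b-/- (adjusted p = 5.13e-04) and by 0.42 in Stat5a-/- (adjusted p = 0.00640), while Psmc6 did not pass in either (-0.34 and -0.45). In the barrel, Psma7 of the outer ring fell by 0.45 (adjusted p = 0.00612) and Psmb2 of the inner ring by 0.41 (adjusted p = 0.00631) in Stat5b-/-, whereas Psma6 (-0.41) and Psmb3 (-0.21) did not pass.

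Of 8 assembly chaperones, 4 were lower and 0 higher in Stat5b-/- against wt with edgeR, and 5 and 0 both with DESeq2 and at an unadjusted p under 0.05, beside 22.0% of all tested genes lower. Psmg1, which helps to build the outer ring, fell by 0.74 (adjusted p = 5.23e-05) and Psmg3 by 0.53 (adjusted p = 0.0140). The others were Psmg2 and Psmd9, named after their values were seen. In Stat5a-/- against wt, 2 of the 8 were lower and 0 higher with edgeR, and 3 and 1 both with DESeq2 and at an unadjusted p under 0.05, beside 16.3% of all tested genes lower. There Psmg2 had a log2 fold change of 0.26, which did not pass, where it fell by 0.32 in Stat5b-/-, and the knockout lines differed by -0.58 (adjusted p = 5.46e-04), beside a median of -0.48 on its chromosome 18. Of 3 other regulators of the barrel, Psme4, the PA200 activator, fell by 0.34 in Stat5b-/- (adjusted p = 0.0300), and the scaffold protein gene Ecpas did not pass (0.18). The thymus and testis subunits Psmb11 and Psma8 had at most 2 reads in any library and were not tested. Between the knockout lines 2 of the 29 subunits were lower in Stat5b-/-, Psmb2 (by 0.29 on the log2 scale, adjusted p = 0.0468) and Psmb1 (by 0.48), the latter named after its value was seen. This compares with 17.5% of all tested genes called lower, and with 4 of the 29 by DESeq2 and 8 at an unadjusted p under 0.05. The median of chromosome 17, where Psmb1 lies, was -0.42 in this comparison.

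**Figure D5:**
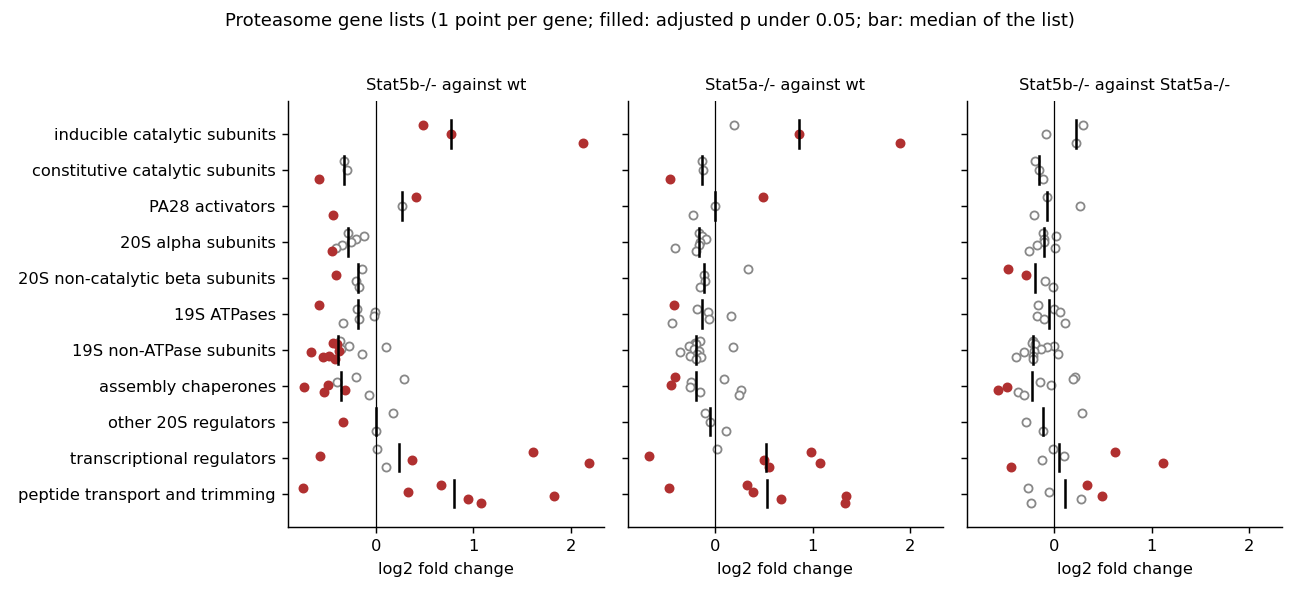
Log2 fold change (horizontal axis) of every tested gene in 11 lists of proteasome and antigen-processing genes in the 3 comparisons, with the list median as a bar and filled points for an adjusted p under 0.05. In Stat5b-/- against wt the inducible subunits lie between 0.49 and 2.13, and the 12 non-ATPase subunits of the 19S cap between -0.67 and 0.10.

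Among 6 transcriptional regulators of proteasome genes, 3 were higher and 1 lower in Stat5b-/- against wt, and 4 were higher and 1 lower in Stat5a-/- against wt, beside 46.2% and 36.0% of all tested genes called. Nlrc5, a transactivator of MHC class I genes, was at 34.4, 34.5 and 34.0 normalized CPM in wt, 65.9, 66.6 and 84.9 in Stat5a-/- and 170.7, 165.7 and 134.4 in Stat5b-/- replicates, and the 3 lines did not overlap. Its log2 fold changes against wt were 2.19 in Stat5b-/- and 1.08 in Stat5a-/- (adjusted p = 2.03e-08 and 1.70e-05), and the knockout lines differed by 1.12 (adjusted p = 1.67e-05). Irf1, an interferon-induced transcription factor, was at 22.0, 21.7 and 21.2 in wt, 44.1, 42.9 and 41.7 in Stat5a-/- and 63.3, 69.0 and 66.1 in Stat5b-/- replicates, again without overlap. Its log2 fold changes were 1.61 and 0.99 (adjusted p = 2.20e-08 and 2.87e-06), with a difference of 0.63 between the knockout lines (adjusted p = 2.04e-04). Irf1 and Nlrc5 thus differed between the knockout lines. Psmb9 did not pass with edgeR, but its difference had the same direction (0.22, adjusted p = 0.104) and its libraries did not overlap. Psmb9 passed under 4 of 21 alternative settings. Relative to the medians of their chromosomes, Psmb9 was higher in Stat5b-/- than in Stat5a-/- by 0.64, Irf1 by 0.60 and Nlrc5 by 1.10. Whether Psmb9 differed less than these regulators was not tested.

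Nfe2l1, which drives the recovery of constitutive proteasome genes when proteasomes fail, fell by 0.58 in Stat5b-/- (adjusted p = 0.00121) and by 0.68 in Stat5a-/- (adjusted p = 4.59e-04). Nfe2l2, the oxidative stress factor, rose by 0.37 and 0.50 (adjusted p = 0.00611 and 0.00100). Rela, the NF-kappaB subunit p65 on chromosome 19, rose by 0.55 in Stat5a-/- (adjusted p = 0.0153), beside a median of 0.41 on its chromosome. In Stat5b-/- Rela was at 0.11. Ddi2, the protease that activates the Nfe2l1 product, was at 0.01 and 0.02.

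Of 6 genes that carry or trim the peptides, 5 were higher and 1 lower against wt in each knockout line, beside 24.2% of all tested genes higher in Stat5b-/- and 19.8% in Stat5a-/-. Tap1, a subunit of the peptide transporter that faces Psmb9 across the interval printed above, was at 59.1, 56.1 and 56.3 normalized CPM in wt, 139.4, 143.0 and 152.0 in Stat5a-/- and 201.2, 204.3 and 203.5 in Stat5b-/- replicates. The 3 lines did not overlap. Tap1 rose by 1.83 on the log2 scale in Stat5b-/- (adjusted p = 3.59e-09) and by 1.34 in Stat5a-/- (adjusted p = 6.77e-08), and the knockout lines differed by 0.49 (adjusted p = 7.42e-04). Its partner Tap2 rose by 0.94 and 0.67 and the loading factor tapasin, Tapbp, by 1.08 and 1.33. These 3 genes and Lnpep lie on chromosome 17, whose median was 0.53 in Stat5a-/- and of whose tested genes 56.1% were called higher there. The trimming peptidase gene Erap1 rose by 0.67 and 0.33 (adjusted p = 5.60e-04 and 0.0470) and Lnpep by 0.33 and 0.39 (adjusted p = 0.0424 and 0.0276), in Stat5a-/- less than the median of its chromosome. Lap3, a cytosolic leucine aminopeptidase, fell by 0.75 and 0.48 (adjusted p = 5.33e-05 and 0.00231).

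Over the 9 libraries, the genes most like the mean log2 level of Psmb8, Psmb9 and Psmb10 were Sit1 (Pearson r = 0.999), Esyt1 (0.998), Dlx1 (0.997), Nfkbie (0.995) and Sept1 (0.995). The 9 points are 3 libraries from each of 3 lines and are not independent samples. Sit1, a lymphocyte adaptor gene, was at 9.45 ± 1.65 normalized CPM in wt, 47.3 ± 9.17 in Stat5a-/- and 61.3 ± 7.93 in Stat5b-/- replicates (SD, n = 3). Nfkbie, which encodes an inhibitor of NF-kappaB, was at 17.1 ± 1.45, 38.9 ± 5.51 and 43.0 ± 4.13 in the same order.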

How the data were processed

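RNA-seq counts of 9 libraries were analysed. Per the labels and the study's methods, the authors made libraries with the Lexogen SENSE kit, sequenced 50 bp single-end reads, trimmed them with Trimmomatic, mapped them with STAR to GENCODE M13 (GRCm38) and deposited read counts for union gene models from featureCounts 1.5.1, without normalization. Symbols came from GENCODE M21 (50376 of 50686 genes named), and samples were grouped by genotype label.

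Scaling used TMM, and the tests were run in R 4.3.3 with edgeR 4.0.16 (filterByExpr, glmQLFit and glmQLFTest on all 9 libraries, Benjamini-Hochberg adjustment over 13852 genes, called at an adjusted p under 0.05). Standard errors and intervals are from the same fit. Ratios were compared with exact permutation tests in Python 3.11.15. The steps were tested on simulated data with far fewer changed genes than were called here. Small fold changes were mostly missed there, a rate that may not hold for these tests. A gene that did not pass is not shown to be unchanged. Libraries of a line differed by more than counting noise (chi-square per degree of freedom 4.89 to 30.5), and each was counted as a library. Depth limits the precision of Psmb5 most. Since reads carried no molecular identifiers, they cannot be taken as independent molecules, and featureCounts, run per the file headers without options for strand, multiple mapping or overlapping genes, leaves out reads that map to several places or genes.

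The members and lists were chosen with earlier results of these data known. Named were the 9 members, the 2 genes with the largest absolute change in Stat5b-/- of each other list, the regulator and peptide lists (1 regulator chosen with them is not reported here and entered no count), and the 5 genes most like the inducible trio. Alternatives were DESeq2 1.42.0, other normalizations and filters, GC offsets, the T-cell receptor share, the replicate block, and each library left out in turn.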

Additional observations from a re-analysis of the deposited data

Results flagged for a closer look

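None of the 9 genes differed between the knockout lines at an adjusted p under 0.05. Of 45 named genes tested, 14 did in the direct comparison with edgeR's quasi-likelihood test, 10 higher and 4 lower in Stat5b-/-, where 33.9% of all tested genes were called. Genes from lists not named in full had been picked for the largest change in Stat5b-/- against wt, which shares the Stat5b-/- libraries. The values are log2 differences, Stat5b-/- minus Stat5a-/-. Among regulators they were 1.12 for Nlrc5, 0.63 for Irf1 and -0.44 for Rela, beside a median of -0.43 on its chromosome 19. Among peptide genes they were 0.49 for Tap1 and 0.34 for Erap1. Among proteasome subunits and chaperones they were -0.29 for Psmb2 and -0.49 for Psmg1. Among lineage markers they were 2.00 for Rag1 and 2.98 for Rag2, both at no more than 16 reads in any knockout library, 1.17 for Lck, 2.02 for Zap70, 0.92 for Csf1r and -2.50 for Hbb-bt. Dlx1, chosen for its likeness to the inducible subunits, differed by 0.56.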

How the results depend on the processing

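The number of the 9 genes called changed under these settings. Against wt, Stat5b-/- had 4 higher and 2 lower, which became 1 and 0 in a test against a 2-fold change, and 3 and 1 with the T-cell receptor share as a covariate. Lower calls were 3, with Psmb6, under 8 of 21 alternatives, DESeq2 and RLE among them. Stat5a-/- had 3 higher and 1 lower, which became 1 and 0 in the test against a 2-fold change, and lower calls became 2 with library totals only, which moved the median of all genes from 0.01 to -0.13. Between the knockout lines 0 were higher, against 2 with library totals only, with the GC offset, with the GC offset and replicate block, and with TMM factors within each chromosome. These settings called 5127, 6070, 5421 and 4314 of all genes, against 4698, and library totals moved the median of all genes to 0.13. In the last, added after seeing the data, the difference of Psmb8 turned from -0.09 to 0.35. The cause was not tested. Leaving out each library in turn gave 3 to 4 higher and 2 to 3 lower in Stat5b-/- against wt, 3 higher and 1 to 2 lower in Stat5a-/- against wt, and 0 to 1 higher and 0 to 1 lower between the knockout lines. These single calls were Psmb10 without Stat5a-/- replicate 3 (0.41) or Stat5b-/- replicate 3 (0.38) and Psme3 without Stat5b-/- replicate 1 (-0.31). Psme3 in Stat5a-/- against wt passed without that library too (-0.25). Without Stat5a-/- replicate 3 the difference of the Psmb8 to Psmb5 log2 ratio between the knockout lines was -0.012, in a range of -0.012 to 0.25. Fold changes that passed in neither fit also changed sign. Psme2 in Stat5a-/- against wt (0.00) was -0.017 with DESeq2, -0.012 with RLE, -0.14 with library totals, -0.016 without a filter and with the GC offset and block, -0.0092 with only these lines, -0.022 with the GC offset, -0.046 with the T-cell receptor share, -0.020 within chromosomes and -0.12 to 0.070 without single libraries. Between the knockout lines, library totals, the GC offset, the GC offset with block and the T-cell receptor share gave 0.025, 0.037, 0.040 and 0.051 for Psmb8 and 0.040, 0.047, 0.049 and 0.12 for Psme1. The T-cell receptor share also gave 0.15 for Psmb5, 0.068 for Psmb6 and -0.0086 for Psme2 between these lines, and 0.082 for Psmb5 and -0.054 for Psme2 in Stat5b-/- against wt. Psmb10 in Stat5a-/- against wt was -0.0020 with the GC offset and block. Of 594 fold changes 535 kept direction and side of the threshold, as did 122 of 126 ratio differences.

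Replicate numbers did not pair the samples: deviations of same-numbered libraries had a mean correlation of -0.08 (-0.40 to 0.19). With the replicate block the counts of members called stayed at 4 and 2, 3 and 1, and 0 and 0, and the Psmb10 to Psmb7 differences of 1.07, 0.66 and 0.41 had an adjusted exact permutation p of 0.0556.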
